A study of Homo sapiens with 4 samples.

Results

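Chromosome 20 was examined in ChIRP-seq of MIR205HG/LEADR, a long noncoding RNA transcribed from chromosome 1, in RWPE-1 cells. All peaks placed on chromosome 20 in the 3 MIR205HG peak lists were taken. They numbered 1407 of the 28639 peaks in the lists: 34 of 734 in replicate 1, 525 of 10794 in replicate 2 and 848 of 17111 in replicate 3. Chromosome 20 was chosen by its peak density in these same lists, the highest of the autosomes, so its density is a description here and carries no test. RWPE-1 is 1 line of immortalized normal prostate epithelial cells, grown without any treatment that differed between the libraries. Each of the 3 libraries was made with the MIR205HG probe pool, and the peaks of each were called against the same single library made with the LacZ pool, for which no file was used here. The lists therefore share their control, and read totals are not given in the sources used here. Sites are given by their GRCh37 (hg19) coordinates.

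In ChIRP, chromatin is cross-linked, biotinylated antisense probes capture an RNA of interest, and the DNA that comes down with it is sequenced. Probes against lacZ, a bacterial gene that human cells lack, report the DNA that is recovered without the target RNA. Captured DNA can carry sequence that resembles the RNA itself, and for MIR205HG this concerns the Alu repeat inside the transcript as well as its unique bases. Alu elements are short interspersed repeats that are common in gene-rich, GC-rich DNA, and the long arm of chromosome 20, a region often gained in epithelial tumours, is richer in genes than the short arm.

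Of the 388 chromosome 20 consensus peaks (regions called in at least 2 replicates), 9 (2.32%) held an exact stretch of at least 14 nt of the MIR205HG transcript. Each stretch lay outside the Alu part of the transcript and within 150 bp of the summit. On the other autosomes the share was 4.40%, and among windows of the same length tiled over chromosome 20 it was 0.448%. Of the 9 peaks, the 7 with the highest mean fold are shown first, because they carry short exact matches to the RNA. Capitals mark the stretch, and each site is written on the strand that reads like the RNA. The strongest chromosome 20 site, in an intron of SPTLC3 (a subunit of serine palmitoyltransferase, which starts sphingolipid synthesis), held bases 19 to 33 of the transcript. A 16 nt stretch with bases 944 to 959 lay in an intron of CFAP61, a gene of motile cilia, and bases 437 to 451 lay at a second CFAP61 site. This second site lies well inside the gene, which begins at position 20033158. Below, proximal means near the start of any annotated transcript, not necessarily the start of the named gene. Bases 945 to 958 were also found at the strongest site of the lncRNA ENSG00000289072, and bases 437 to 450 at a distal site on the short arm. The genes of these sites beyond SPTLC3, CFAP61 and ENSG00000289072 were picked after their values were seen.
SPTLC3 intron, chr20:13012031-13012085, plus strand: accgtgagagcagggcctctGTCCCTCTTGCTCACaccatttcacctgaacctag
CFAP61 intron, chr20:20187333-20187388, plus strand: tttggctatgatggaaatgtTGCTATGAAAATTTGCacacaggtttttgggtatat
CFAP61 proximal, chr20:20270362-20270416, minus strand: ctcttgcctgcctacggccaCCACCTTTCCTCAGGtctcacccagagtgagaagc
short arm distal, chr20:24796364-24796417, plus strand: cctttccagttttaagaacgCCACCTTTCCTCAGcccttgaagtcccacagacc
PTPRA intron, chr20:3015397-3015451, minus strand: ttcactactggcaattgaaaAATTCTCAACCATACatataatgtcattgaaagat
GZF1 exon, chr20:23353693-23353721, minus strand: aaattgaCAAGTACCCATCTTGtttccca
ENSG00000289072 proximal, chr20:46821281-46821334, minus strand: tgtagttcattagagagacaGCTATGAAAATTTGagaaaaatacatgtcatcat

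The other transcript sequence that recurred at the peaks was the Alu part, which spanned bases 183 to 386 of the 1007 nt transcript ENST00000429156, 204 nt in all. The alignments covered only a part of it, 105 bp in an intron of CDH4 (R-cadherin, a cell adhesion molecule) and 110 bp in an intron of NDRG3. Within the aligned bases identity was 82.1% and 81.8%, at 104 and 65 bp from the summit. Identity was 80.9% over 109 bp at EPB41L1, a membrane skeleton protein of the band 4.1 family, where the alignment lay 1056 bp from the summit.

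Peak density was computed per Mb of sequenced bases, of which chromosome 20 had 59.5 Mb. Chromosome 20 had 0.571 peaks per Mb in replicate 1, 8.82 in replicate 2 and 14.3 in replicate 3. The median of the other 21 autosomes was 0.228, 3.80 and 6.31 peaks per Mb, which placed chromosome 20 at 2.36 ± 0.125 times the median (SD, n = 3 replicates). It ranked first of the 22 autosomes in each replicate. The nearest autosome was chromosome 15 in replicate 1, with 0.453 peaks per Mb, and chromosome 19 in replicate 2 with 6.79 and in replicate 3 with 10.8. These are the values just outside the choice, and they were not tested because they made it. By genes or transcription start sites chromosome 20 did not rank first. Chromosome 20 ranked 7 of 22 by protein-coding genes per Mb (9.19) and 10 by annotated transcription start sites per Mb (85.7, against 226 on chromosome 19). It ranked 5 by GC content (44.1%) and 5 by the share of bases aligned to the MIR205HG Alu part (3.38%). Per 1000 transcription start sites it held 76.1 consensus peaks, against a median of 34.1 and a highest value of 59.0 on chromosome 9. Over the 22 autosomes, consensus peaks per Mb had a Spearman correlation of 0.57 with transcription start sites per Mb. With GC content it was 0.78, and with the share of bases aligned to the Alu part 0.79. For peaks of replicate 1 alone the 3 correlations were -0.25, -0.16 and -0.08.

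**Figure D1:**
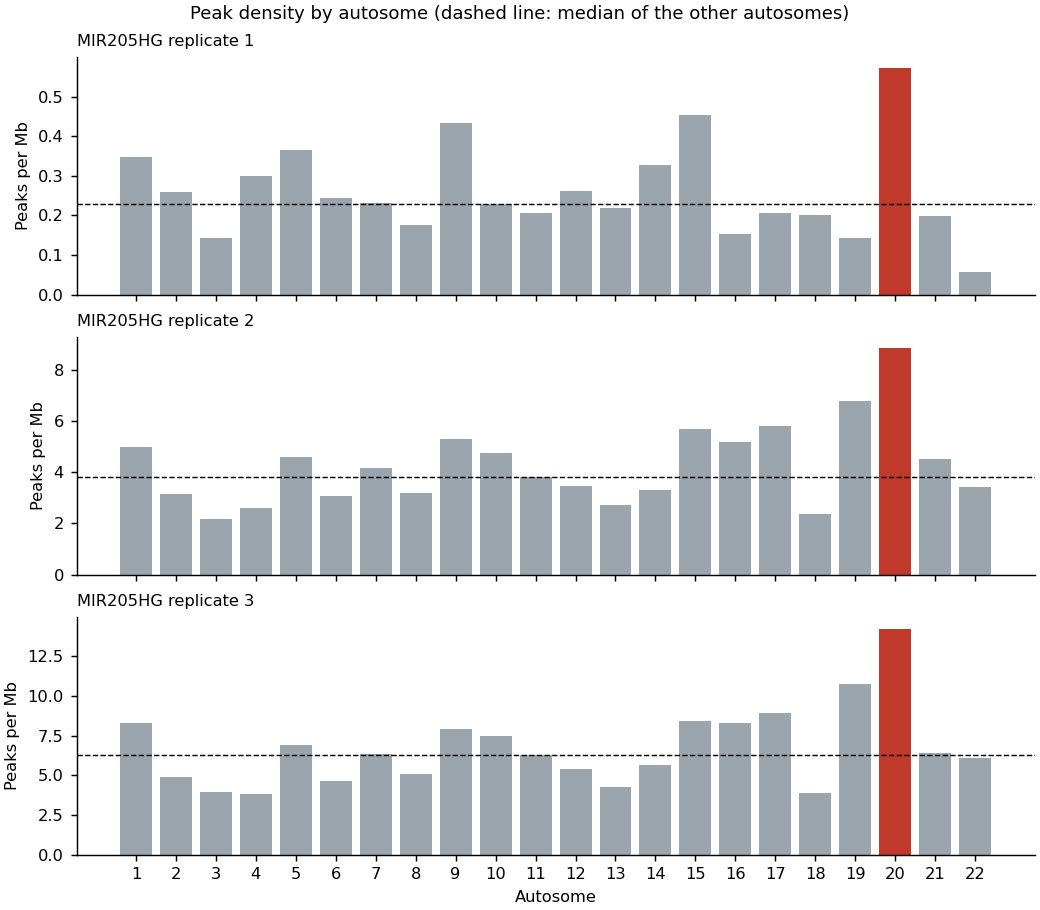
Peaks per Mb of sequenced bases (vertical axis) on each of the 22 autosomes (horizontal axis), with 1 panel for each MIR205HG replicate. Chromosome 20 (red bar) reached 0.571, 8.82 and 14.3 peaks per Mb, and the dashed line marks the median of the other 21 autosomes (0.228, 3.80 and 6.31).

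Consensus peaks were defined as regions with summits of at least 2 of the 3 replicates within 500 bp of their median summit. They were derived anew here and are not the authors' own consensus set. Chromosome 20 had 388 of them (6.52 per Mb), followed by chromosome 19 with 4.69 per Mb. Of these, 356 came from replicates 2 and 3, 29 from all 3 replicates, 2 from replicates 1 and 3, and 1 from replicates 1 and 2. The set therefore rested on replicates 2 and 3 together, and without either of them 31 or 30 regions were left. Their median width was 596.5 bp, against 539.5 bp on the other autosomes, and 105 were at least 1000 bp wide. The widest ran for 5038 bp at MYLK2, a myosin light chain kinase of skeletal muscle, at chr20:30419572-30424609 (named after its values were seen). In 11 places neighbouring consensus peaks overlapped, among them a pair at NDRG3.

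The long arm carried most of the chromosome's peaks. Its density was 0.752, 12.3 and 19.5 peaks per Mb in replicates 1, 2 and 3, the highest of the 39 chromosome arms with at least 10 Mb of sequence in each. The short arm had 0.343, 4.42 and 7.62 peaks per Mb and ranked 6, 14 and 13. The ratio of long to short arm was 2.19, 2.78 and 2.56, or 2.51 ± 0.298 (SD, n = 3 replicates). For comparison, the next arms were 9q in replicate 1 (0.623 peaks per Mb), 19q in replicate 2 (6.91) and 19p in replicate 3 (10.8). Of the 388 consensus peaks, 302 lay on the long arm (77.8%, exact Clopper-Pearson 95% interval 73.4 to 81.9), which had 55.9% of the sequenced bases and 66.0% of the protein-coding genes of the chromosome. All such intervals given here cover counting error only.

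Along the chromosome, 59 windows of 1 Mb had at least 0.5 Mb of sequence, 26 on the short and 33 on the long arm. Short arm windows held 0 to 7 consensus peaks with a median of 3, and 4 of them held none. Long arm windows held 1 to 25 with a median of 8. All 14 windows with at least 10 consensus peaks were on the long arm. The densest, from 60 to 61 Mb, held 25 consensus peaks, with 0, 31 and 51 peaks in replicates 1, 2 and 3. That window had 11 protein-coding genes and a GC content of 53.9%, and it takes in the last part of CDH4 with TAF4 (a TFIID subunit), SS18L1 (a calcium-responsive chromatin regulator) and LAMA5 (laminin alpha 5 of the basement membrane). A second dense stretch lay in the adjoining windows from 35 to 37 Mb, with 17 consensus peaks each, over NDRG3, MROH8, RPN2 and RPRD1B. Replicate 1, which had few peaks in all, reached its highest count there, 3 peaks between 35 and 36 Mb. The next window, from 46 to 47 Mb, held 15 consensus peaks and only 2 protein-coding genes. At the other end, the windows from 7 to 8 Mb and from 21 to 22 Mb held no peak in any replicate, and the one from 22 to 23 Mb held 1, in replicate 3.

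**Figure D2:**
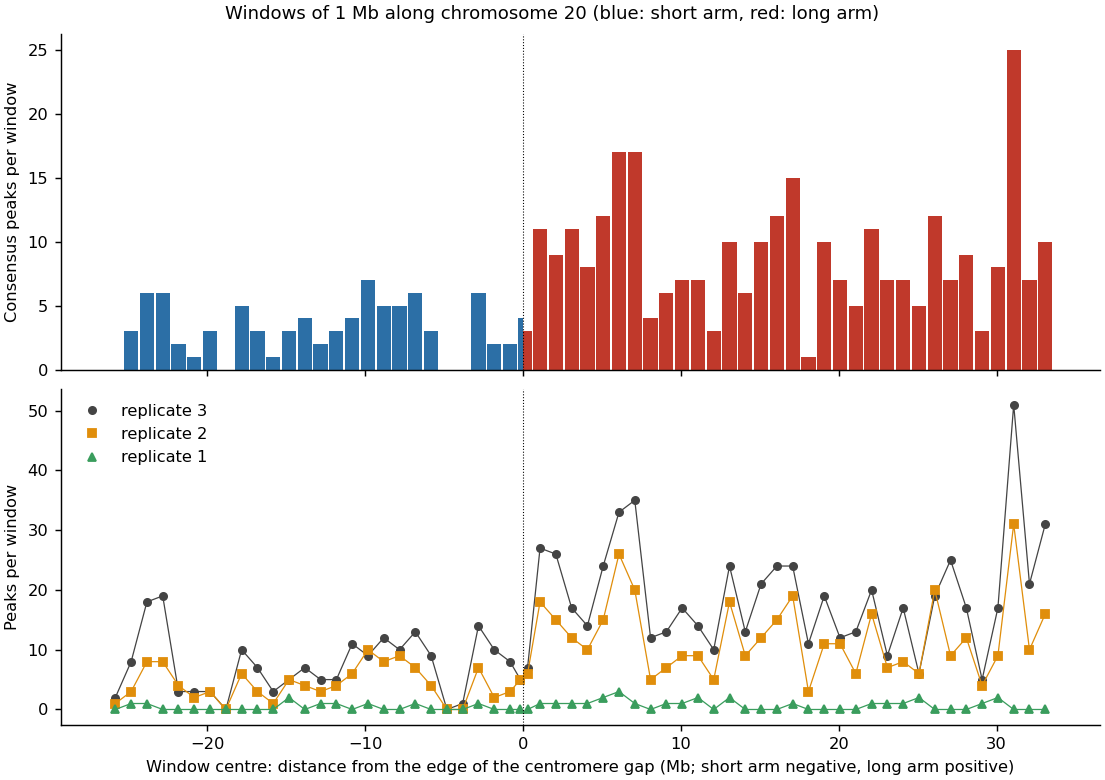
Counts in 1 Mb windows along chromosome 20, by distance of the window centre from the edge of the centromere gap in Mb (negative on the short arm, positive on the long arm). Bars in the upper panel are consensus peaks (blue for the short arm, 0 to 7 per whole window, and red for the long arm, up to 25), and the lower panel shows the peaks of each replicate, which reached 3, 31 and 51.

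Spacing differed in the same way. Neighbouring consensus peaks were a median of 29.5 kb apart on the long arm and 92.9 kb on the short arm. On the long arm 40.5% of neighbours were within 10 kb, on the short arm 28.2%. The longest stretch without a consensus peak was 2.88 Mb on the short arm, chr20:20270674-23145411, and 0.842 Mb on the long arm. Across the 33 long arm windows, consensus peaks per Mb had a Spearman correlation of 0.49 with GC content, 0.42 with the number of protein-coding genes and 0.37 with the share of bases aligned to the MIR205HG Alu part. Across the 26 short arm windows the same correlations were 0.09, 0.11 and 0.00. The single replicates differed: on the long arm the correlation of peaks with GC content was -0.38 in replicate 1, which had 25 peaks there, 0.56 in replicate 2 and 0.65 in replicate 3, and that with protein-coding genes was -0.19, 0.49 and 0.50. On the short arm the correlation with GC content was -0.05, 0.12 and 0.36. The windows share libraries and control, and how GC content, genes and Alu elements vary with each other was not computed, so these are descriptions.

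The fold enrichment and p-value of each peak allowed the reads at its summit and the lacZ level that it was compared with to be solved, and this lacZ level differed on chromosome 20. It is given as a multiple of the lowest level in the replicate. The median over chromosome 20 peaks was 2.34, 2.35 and 2.36 in replicates 1, 2 and 3, which no other autosome exceeded, although chromosomes 8 and 16 also had 2.34 in replicate 1 and chromosomes 5 and 9 had 2.35 in replicate 2. The medians of the other autosomes had a middle value of 1.79, 1.53 and 1.23, and the ratio was 1.59 ± 0.313 (SD, n = 3 replicates). On the long arm the median was 2.55, 2.68 and 2.36 and ranked 3, 1 and 1 of 39 arms. On the short arm it was 2.30, 1.52 and 1.19 and ranked 7, 22 and 27. Only 4.40% of long arm peaks in replicate 2 and 4.48% in replicate 3 were compared with the lowest level, the smallest shares of the 39 arms, against 10.3% and 22% on the short arm.

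The difference in density between the arms was much smaller among peaks with a low lacZ level, a division chosen after the data were seen. Peaks with a lacZ level of at most 1.5 times the lowest were counted per Mb of all sequenced bases of the arm, whatever the lacZ level there. The long arm had 2.196 such peaks per Mb in replicate 2 and the short arm 2.17. In replicate 3 these values were 4.63 and 4.34. In replicate 1, with 7 and 4 such peaks, they were 0.211 and 0.152. By this count the long arm ranked 1, 10 and 4 of 39 arms, and its density was 1.83, 1.20 and 1.39 times the median of the other arms, where all peaks gave 3.26, 3.33 and 3.26 times. Such peaks made up 17.8% of long arm peaks in replicate 2 and 23.8% in replicate 3, against 49.1% and 57% on the short arm. The part of the lacZ level in the density was not tested, the copy number of the long arm in these cells was not analysed here, and the lacZ signal at places without a peak was not analysed here.

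**Figure D3:**
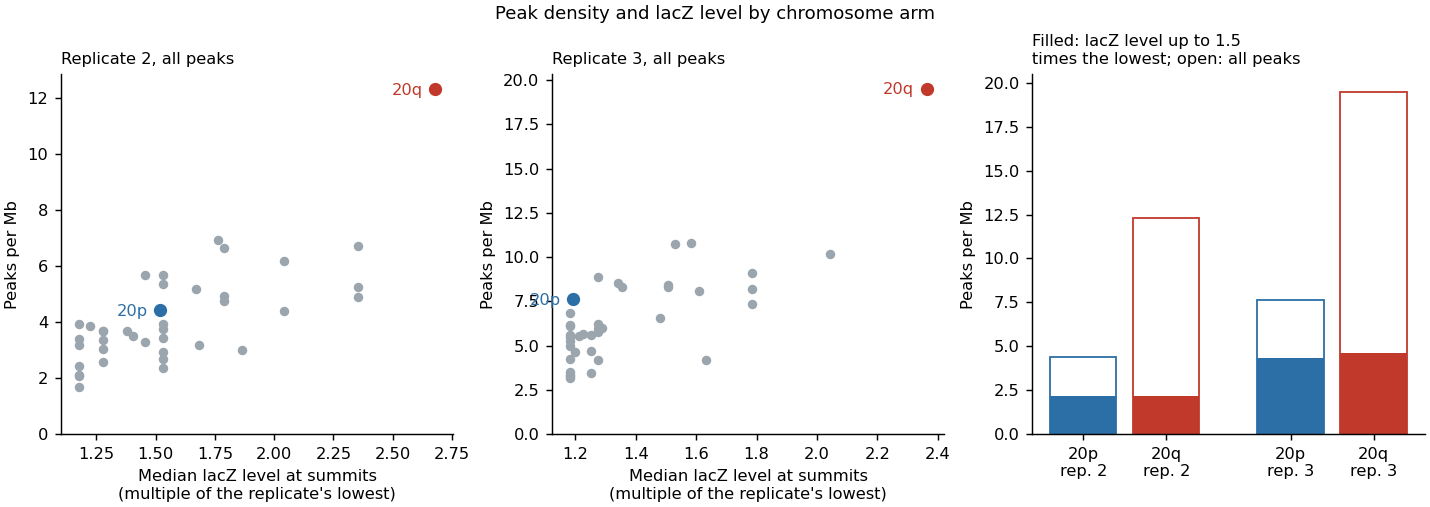
Left and middle, peaks per Mb (vertical axis) against the median lacZ level at the summits (horizontal axis, as a multiple of the lowest level in the replicate) for 39 chromosome arms in replicates 2 and 3. Right, peaks per Mb on 20p and 20q for all peaks (open bars) and for peaks with a lacZ level up to 1.5 times the lowest (filled bars), which were 2.17 and 2.196 in replicate 2 and 4.34 and 4.63 in replicate 3.

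Fold enrichment was low on chromosome 20. Reads and lacZ level were solved from the fold and the p-value, so these values are not independent of each other. The median fold on chromosome 20 was 7.66, 5.70 and 6.31 in replicates 1, 2 and 3, rank 19, 22 and 22 of the autosomes, or 0.905 ± 0.0254 times the median of the others (SD, n = 3 replicates). Within the chromosome, the long arm had medians of 7.79, 5.52 and 5.98 and the short arm 7.18, 6.48 and 6.97. The long arm values of replicates 2 and 3 were the lowest of the 39 arms, while its median reads per summit, 26 and 19, were the highest. Peak width differed little: medians were 145.5, 330 and 348 bp, against 147, 316.5 and 333 bp on the other autosomes.

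Sharing between the lists was counted as an overlap of at least 1 bp. All 34 peaks of replicate 1 overlapped a peak of both other replicates (interval 89.7 to 100). Of the 525 peaks of replicate 2, 439 overlapped one of replicate 3 (83.6%, interval 80.2 to 86.7) and 31 one of replicate 1. Of the 848 peaks of replicate 3, 406 overlapped one of replicate 2 (47.9%, interval 44.5 to 51.3). Chromosome 20 ranked 2 of the 22 autosomes for replicate 2 and 13 for replicate 3, whose median shares were 80.4% and 48.5%. The higher density therefore did not come with a share of overlapping peaks outside the range of the other autosomes. Peaks without a partner were weaker and narrower: in replicate 3 their median fold was 5.83 with 15 reads and a width of 296 bp, against 7.17, 24 reads and 446.5 bp for those with a partner. In replicate 2 the median fold was 4.95 against 5.84 and the median width 255.5 bp against 354 bp. Both kinds lay on the long arm to a like extent, 76.0% and 76.8% in replicate 3.

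The 29 consensus peaks of all 3 replicates lay 9 on the short and 20 on the long arm. They included the highest fold of the chromosome in replicates 1 and 3. The highest fold of replicate 2, 29.0, was at NDRG3 in a region of replicates 1 and 2. That region lay inside the bounds of a second NDRG3 region of replicates 1 and 3, with a fold of 33.2 in replicate 3. Together the pair held peaks of all 3 replicates, though neither region did alone. The site in SPTLC3, chr20:13011068-13012748, had a fold of 16.02, 18.5 and 41.8 in replicates 1, 2 and 3, with 41, 48 and 79 reads at the summit. Its lacZ level was 1.07 times the lowest in each. An exonic site of CHD6, a chromodomain helicase, had 8.35, 18.6 and 25.8 (chr20:40073944-40076066). The site at the start of ENSG00000289072, chr20:46819915-46823222, had 8.96, 22.03 and 17.9, and its lacZ level was 1.48 times the lowest in replicates 1 and 2 and 3.55 times in replicate 3. Replicate 1 gave the lowest fold at each of these 3 sites. None of the 3 had an Alu alignment of at least 100 bp, although among all 29 sites 12 had one.

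Of the 388 consensus peaks, 154 held an alignment of at least 100 bp to the MIR205HG Alu part (39.7%, interval 34.8 to 44.8), against 42.5% on the other autosomes. With 50 bp the share was 58.2%. No chromosome 20 peak had 150 bp, and on the other autosomes only 9 of 7288 did, so this setting says little about chromosome 20. Alignments covered 7.52% of consensus peak bases, against 8.36% on the other autosomes, and 3.38% of the chromosome. They gathered at the summit, where 15.2% of the 388 peaks were under an alignment, against 4.12% at 1000 bp on either side. The other autosomes had the same pattern, with 14.2% at the summit and 3.07% and 2.92% at 1000 bp on either side. The share of peaks with an alignment was 36.0% on the short arm (31 of 86) and 40.7% on the long arm (123 of 302), with overlapping intervals.

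Exact stretches of the rest of the transcript were distributed otherwise. A stretch of at least 14 nt lay within 150 bp of the summit in 7 of 86 short arm consensus peaks (8.14%, interval 3.33 to 16.1) and in 2 of 302 long arm peaks (0.662%, interval 0.0803 to 2.37). Over the whole chromosome 9 of 388 held one (2.32%, interval 1.07 to 4.36), fewer than the 4.40% of the 7288 consensus peaks on the other autosomes. Of all windows of the same length tiled over chromosome 20, 0.448% held one. With at least 12 nt the shares were 20.9% on the short arm, 8.61% on the long arm and 4.57% of all windows. Short arm peaks near the lowest lacZ level had the most: 6 of 40 held a 14 nt stretch (15%, interval 5.71 to 29.8), against 1 of the 46 above 1.5 times the lowest. On the long arm it was 0 of 49 near the lowest level, which allows up to 7.25%, and 2 of 253 above it. Among consensus peaks of all 3 replicates, 3 of 29 on chromosome 20 (10.3%, interval 2.19 to 27.4) and 20.5% on the other autosomes held one. At the sites printed above, the stretch lay 23 to 84 bp from the median summit. Whether these stretches lie in the bases that the probes target was not tested.

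**Figure D4:**
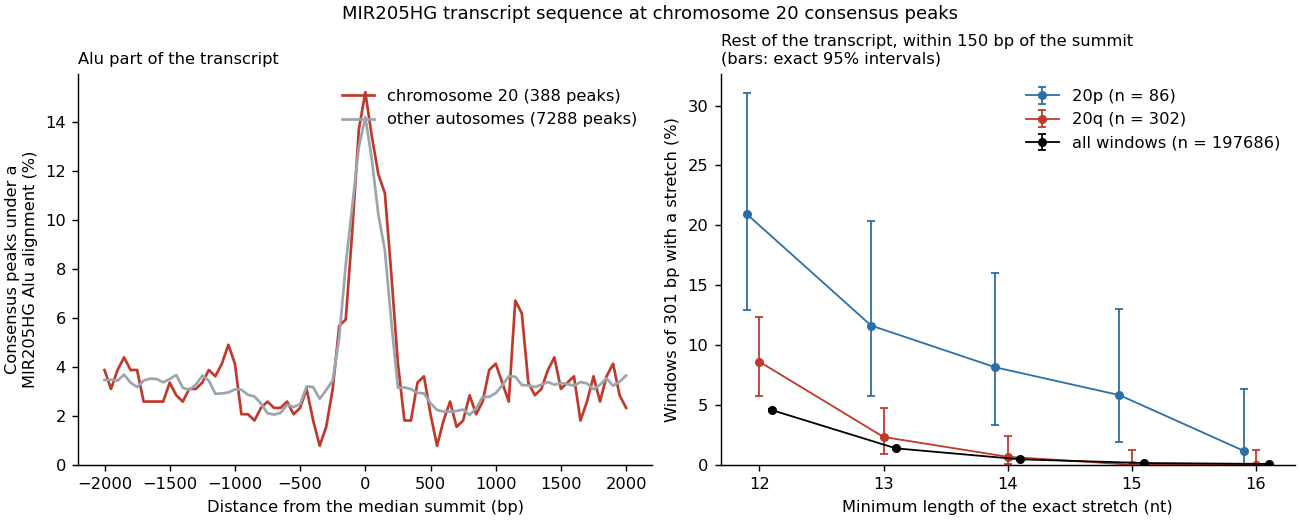
Left, the share of consensus peaks under an alignment to the MIR205HG Alu part (vertical axis, %) by distance from the median summit in bp, with 15.2% of chromosome 20 peaks (red) at the summit. Right, the share of windows of 150 bp either side of the summit with an exact stretch of the rest of the transcript by its minimum length in nt, with exact 95% intervals as bars: at 14 nt it was 8.14% on 20p (blue), 0.662% on 20q (red) and 0.448% of all chromosome 20 windows (black).

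By position relative to genes, 46 consensus peaks were proximal, with a transcription start site at most 1500 bp downstream or 500 bp upstream of them (11.9%, interval 8.81 to 15.5), 27 touched an exon, 187 lay in introns (48.2%, interval 43.1 to 53.3), 24 lay within 3000 bp downstream of a transcript and 104 were distal. On the other autosomes 12.8% were proximal and 48.8% intronic. The downstream class had 6.19% (interval 4.00 to 9.06) on chromosome 20 and 3.33% elsewhere. With the starts of protein-coding transcripts alone, 4.12% were proximal. Introns held 59.3% of short arm and 45.0% of long arm consensus peaks.

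Of the 547 protein-coding genes of chromosome 20, 108 held at least 1 consensus peak in the gene or 1500 bp upstream, which is 19.7% of them, and 56 held at least 2, which is 10.2%. The medians of the other autosomes were 12.7% and 5.26%, and chromosome 20 ranked second for both. At least 3 consensus peaks were found in 30 genes and at least 5 in 7. On the long arm 22.4% of 361 genes had a consensus peak, on the short arm 14.5% of 186. Longer genes had more: the median length was 132 kb for the 30 genes with at least 3 and 19.6 kb for the 439 with none, and the Spearman correlation of length and count over the 547 genes was 0.40. Genes are not independent replicates.

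CDH4 and TSHZ2 had the most consensus peaks. CDH4 held 14 consensus peaks over 688 kb, with 2, 16 and 33 peaks in replicates 1, 2 and 3. Of its 14, 2 had an Alu alignment, and the highest folds were 20.6 in replicate 2 and 23.8 in replicate 3. TSHZ2, a teashirt zinc finger transcription factor, held 13 over 523 kb, with 2, 16 and 22 peaks. Of these 13, 9 had an Alu alignment. The lncRNA ENSG00000271774, which lies inside TSHZ2, shared 12 of them, and ENSG00000259723, at the end of the same gene, shared 3. EYA2, a transcriptional coactivator with phosphatase activity, held 6 over 294 kb, with 0, 7 and 12 peaks, and 2 of them were proximal. SULF2, which removes sulfate groups from heparan sulfate outside the cell, held 5 over 130 kb.

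Of the leading genes on the short arm, MACROD2 and PLCB1 were longer than CDH4 and TSHZ2, and KIF16B was shorter. MACROD2, a mono-ADP-ribosylhydrolase, held 7 consensus peaks over 2058 kb, or 0.340 per 100 kb, with 1, 10 and 16 peaks in the replicates. KIF16B, an endosomal kinesin, held 7 over 301.3 kb, or 2.32 per 100 kb, and PLCB1, a phospholipase C that acts downstream of G proteins, 5 over 891 kb. PTPRT, a receptor tyrosine phosphatase of 1117 kb on the long arm, had 4. SS18L1 had 4 over 38.7 kb, 3 of them proximal, and NDRG3 had 4 over 94.3 kb and folds up to 29.0 in replicate 2 and 33.2 in replicate 3. All 4 NDRG3 peaks had an Alu alignment. Of the 4, 2 were the overlapping pair, in which the alignment nearest the summit was the same one. CHD6, RPRD1B (a regulator of RNA polymerase II) and MROH8 had 4 each. EPB41L1 and CFAP61 had 3 each. The lncRNAs LINC01270 and LINC01271, which overlap each other, had 3 each, with folds up to 20.1 in replicate 3, and LAMA5-AS1, 3.51 kb long and inside LAMA5, had 3. In the densest windows AAR2, TAF4, RPN2 and the lncRNA ENSG00000225106 inside CDH4 also had 3 each, with folds of at most 8.33 in replicate 3.

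**Figure D5:**
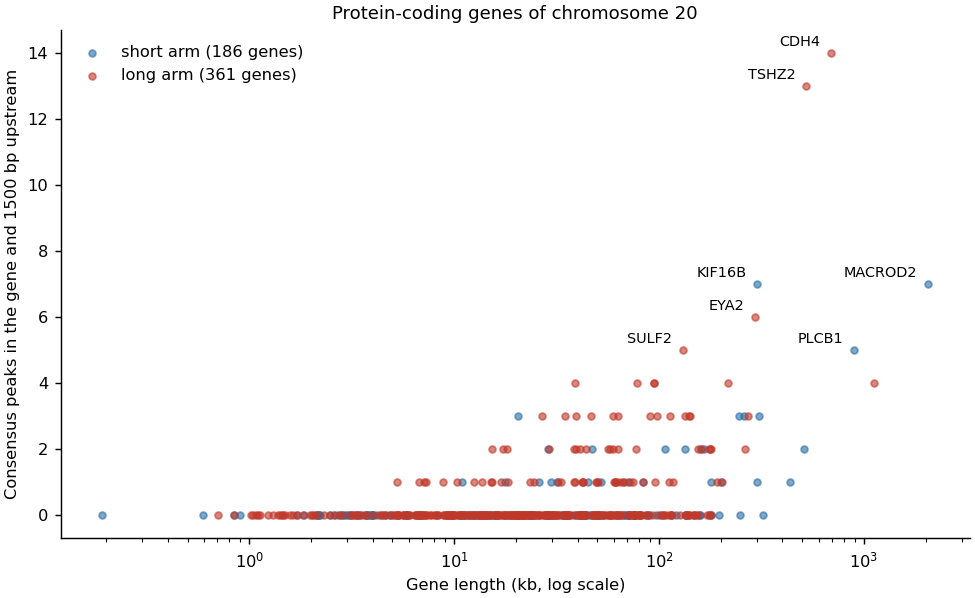
Consensus peaks in each of the 547 protein-coding genes of chromosome 20 with 1500 bp upstream (vertical axis) against gene length in kb (horizontal axis, log scale), coloured by arm. CDH4 (14) and TSHZ2 (13) stand above MACROD2 (7), which is longer than both.

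Gene groups with known clusters on chromosome 20 were counted next, beside the 19.7% of all coding genes with a consensus peak. Of 15 genes often named in gains of the long arm, 4 had one: BCAS1 with 3, BCL2L1 (an inhibitor of apoptosis) with 2, and SRC and TOP1 (a tyrosine kinase and topoisomerase I) with 1 each. BCL2L1 had a site of all 3 replicates, with a fold of 22.4 in replicate 3. Of 16 genes of epithelial signalling and differentiation, 4 had one: CDH4, BMP7 with 3, LAMA5 with 3 and TGM3, a transglutaminase of the cornified envelope, with 1. The clusters of tandem secreted protein genes were counted in the same way, and most of their genes are shorter than the median of 24.2 kb. Only WFDC3 of the 18 genes listed for the whey acidic protein cluster, a list by position, had consensus peaks, 2 in number. Of the 10 BPI fold genes, BPI and BPIFB4 had 1 each, a share like that of all coding genes. None of the 11 cystatin genes and none of the 13 beta-defensin genes had a consensus peak, or a peak in any single replicate. The cystatin genes lie on the short arm, where 14.5% of coding genes had a consensus peak. The share of all coding genes with a peak in any single replicate is not given here, and gene length was not accounted for. Of the 5 signal regulatory protein genes, none had a consensus peak and SIRPB2 had 1 peak in replicate 3.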

How the data were processed

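Peaks of 3 MIR205HG ChIRP-seq libraries of RWPE-1 cells were used as deposited by the authors, who aligned reads to hg19 and called peaks with MACS2 (2.1.0 per the submitters' processing notes, which also name Bowtie 1.0.1) in each replicate against 1 lacZ library. Per the file headers and values, the deposited columns were a fold enrichment (a ratio), -log10 p-values and q-values, a score of 10 times the latter, and the summit offset. Members and gene lists were chosen with earlier results of these data known.

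Consensus peaks came from a rewritten form of the consensusSeekeR rule (500 bp either side of the median summit, at least 2 replicates). Each region was set to the outer bounds of its peaks, and regions could overlap. The resulting set is larger than the one the paper obtained with consensusSeekeR, so counts of consensus peaks differ from the paper's. Density used sequenced bases of GRCh37, genes GENCODE 44 (lifted). Reads and lacZ level at a summit were solved from fold and p-value, with 1 fitted depth ratio per replicate (1.83, 1.39 and 1.00), which matched 100% of peaks. Alu alignments came from blastn (BLAST 2.17.0). Steps were tested on simulated data. No test was run: shares have exact 95% intervals, and replicate values a mean and SD. The named genes were the 15 coding and 5 other genes with most consensus peaks, those at the 5 strongest sites of all 3 replicates, those with at least 3 in the 5 densest windows, and the listed groups. Python 3.11.15, pandas 2.3.3 and scipy 1.17.1 were used. Some sites and sequences are not reported here.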

Additional observations from a re-analysis of the deposited data

How the results depend on the processing

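The rank of chromosome 20 as the densest autosome held in each replicate under every setting tried: q-values of at most 0.01, folds of at least 5, whole chromosome length, peaks per 1000 transcription start sites (2.05 times the median of the other autosomes, against 2.36) and summed peak width (2.70 times). Of 52 alternative values 21 moved by more than the spread or interval of the reported value or, for counts, by more than 1.5 times. Direction was defined only for the ratios between chromosomes or arms, and none of those ratios changed direction. Counts and shares had no direction to change. Consensus peaks numbered 353 to 399 with other extensions or merged overlaps, 263 with folds of at least 5 and 29 when all 3 replicates were required, and leaving out 1 replicate gave 30 to 387. Consensus peaks per Mb over long arm windows were 2.88 times those over short arm windows, 2.196 times for replicate 1 alone, and 1.84 to 2.87 times when 1 replicate was left out. Genes with at least 2 consensus peaks were 72 of all types, 4 by peaks of replicate 1 alone, 147 by replicate 3 alone, and 2 to 72 when 1 replicate was left out. Sharing of replicate 2 peaks fell to 76.4% with summits within 500 bp. The Alu share was 58.2% with 50 bp, 0 with 150 bp and 14.7% within 200 bp around the summit, and the proximal share 4.12% with protein-coding transcripts. Transcript stretches near the summit were at 2.32% of consensus peaks with 14 nt, 11.3% with 12 nt, 4.38% with 13 nt and 0.258% with 16 nt. The long arm density, 3.29 times the median of the other arms, was 1.47 times among peaks with a lacZ level up to 1.5 times the lowest. The last 2 sets were chosen after the data were seen. The cause of these shifts was not tested beyond the fewer peaks or replicates that each setting leaves. No paired analysis was possible because the lacZ group had 1 library, for which no file was used here. Replicate 1, with 34 peaks, limits every statement on all 3 replicates.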
